A study of Sus scrofa with 95 samples.

Results

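The left ventricle of 8 control pigs was set against the ileum, kidney, liver and lung of the same animals. These are 40 of the 95 messenger RNA libraries of a study of infant swine, with 8 libraries per organ. The animals, of 5 to 10 kg, served as anesthesia controls, received no linrodostat (label NoDrug) and underwent neither cardiopulmonary bypass nor circulatory arrest. The bypass and the linrodostat animals are not used here. The libraries were taken by their labels, as control hearts without drug and as control libraries of the other organs, and were matched by animal number (1, 4, 7, 10, 13, 14, 15 and 26; numbers 4, 13, 14 and 15 were female and the other 4 male). The sampled sites were the left ventricle, kidney cortex, terminal ileum, right lower lung lobe and liver. Kidney and ileum were taken just before euthanasia and liver, heart and lung just after it. All heart libraries carry batch label 2 and all others batch label 1, so heart and batch label cannot be told apart in any comparison of organs.

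A heart muscle cell contracts when calcium enters through channels of its surface membrane, releases more calcium from the sarcoplasmic reticulum and so lets myosin pull on actin in the sarcomere. Calcium is then pumped back by ATP2A2, whose inhibitor is phospholamban (PLN), and the work is paid for by ATP from mitochondria that burn mainly fatty acids. Around birth the mammalian heart replaces several fetal protein isoforms by adult ones and turns from glucose and lactate to fat as its main fuel.

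Heart libraries held 21321288 to 27219448 counts and the other 32 libraries 28450535 to 53627711. Levels are counts scaled to a common depth (CPM) by the trimmed mean of M-values (TMM), which sets the bulk of genes equal between libraries. CPM of the 8 hearts therefore sum to 1265400 to 1618450, and levels are compared between libraries, not between genes, since no transcript lengths were used. In each heart, 13759 to 14416 genes had at least 10 counts, against 14430 to 17483 in the other libraries. Correlations of log2 CPM between pairs of hearts were 0.923 to 0.967 across genes above a minimum mean level in hearts. Such correlations between organs are not given here for comparison. The lung library of animal 1 stood apart, with 27% of its counts in 10 genes and 31.7% in genes known by ID only. In tissue RNA, fewer cells of a type and less RNA per cell cannot be told apart.

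The tissue labels were first checked against defining genes. The 3 genes that mark heart muscle here were higher in every heart than in each of the 32 other libraries. Cardiac actin ACTC1 (chromosome 1, 136281119 to 136286551, Sscrofa11.1) had 1918, 4576 and 7647 CPM as lowest, median and highest heart, against 0.0429 to 35.6 CPM elsewhere, and its heart mean was 427 times the kidney mean, the highest of the others (edgeR adjusted p = 1.1e-14). The calcium pump gene ATP2A2 (chromosome 14, 31674659 to 31744981) had 1703, 2686 and 3805 CPM in hearts, against 78.9 to 239 CPM elsewhere. Its log2 fold change was 3.90 ± 0.15 against liver and 4.76 ± 0.16 against lung (± SE), with an edgeR adjusted p of 5.3e-20 for the weakest of the 4 comparisons. PLN (chromosome 1, 43449354 to 43458925) had 536, 621 and 1117 CPM in hearts, against 0.377 to 16.4 CPM elsewhere (edgeR adjusted p = 2.5e-10). The lowest heart was thus above the highest other library for each of the 3 genes.

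**Figure D1:**
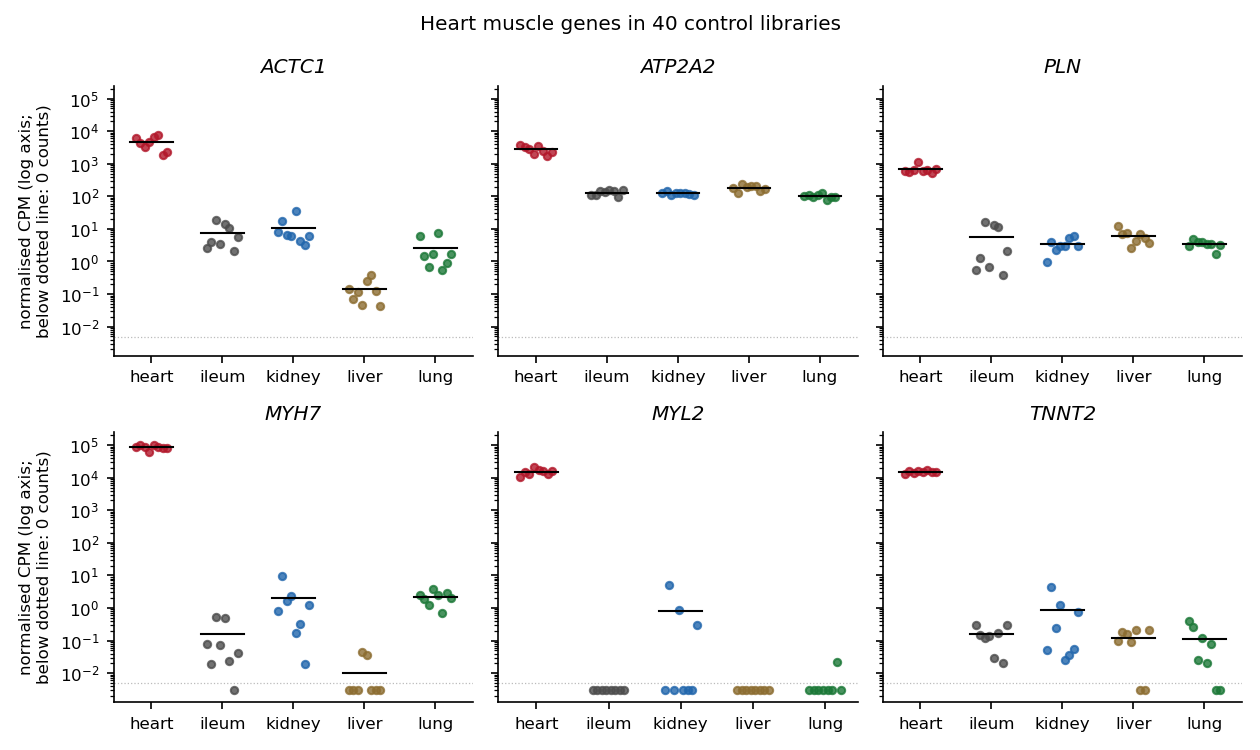
Normalised CPM (log axis) of 6 heart muscle genes in 40 control libraries, 8 points per organ with the mean as a bar; points under the dotted line are libraries with 0 counts. For each gene all 8 hearts lie above all 32 other libraries; the highest MYH7 point outside the heart is 9.56 CPM, in kidney.

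Each gene was tested with edgeR, with a term for the animal. A gene was called higher in heart when each of 4 tests, against ileum, kidney, liver and lung, gave at least a 2-fold difference in the same direction and the largest of the 4 p-values had a Benjamini-Hochberg adjusted value under 0.05 over all 18305 genes tested. By this rule 1317 genes were higher in heart than in each other organ, 7.19% of those tested, and 1256 were lower, 6.86%. Of the called genes 51.2% were higher; with libraries scaled by total counts alone, 696 were higher and 2206 lower, a share of 24%, and that scaling shifts the median of all genes by -0.89 against ileum, -0.90 against kidney, 0.34 against liver and -0.99 against lung (log2). Among the 1317 higher genes, 633 differed at least 4-fold and 178 at least 32-fold from every other organ, and for 1079 of them all 8 hearts lay above all 32 other libraries. The second organ in level was kidney for 468, lung for 327, liver for 276 and ileum for 246 of them. Only the heart libraries let 10.8% of the higher genes pass the filter on low counts, so these could be called in 1 direction only. A symbol was at hand for 1056 of the 1317 and an ID alone for 261, among them ENSSSCG00000000576 at 3120 ± 806 CPM in heart and 744 CPM in kidney, and ENSSSCG00000036052 at 2610 ± 417 CPM in heart and at most 1.75 CPM on average elsewhere.

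Taken singly, heart was at least 2-fold higher than ileum in 3930 genes (21.5% of those tested) and lower in 5186 (28.3%). Against kidney 2758 were higher (15.1%) and 4509 lower (24.6%), against liver 4046 higher (22.1%) and 4802 lower (26.2%), and against lung 3159 higher (17.3%) and 5172 lower (28.3%). The 4 comparisons share the heart libraries, so their overlap is not read as a result. For each gene list below, the count of members called stands against 7.19% of all genes higher and 6.86% lower. Members and lists were chosen with earlier results of these data known. The counts therefore describe the members and are not a test of a list. The 40 lists hold 701 genes, of which 650 matched a row by symbol and 630 of these passed the filter on low counts; the 51 with no match are not analysed here. The median over a list is that of the smallest of a gene's 4 log2 fold changes, which was -1.02 over all genes tested.

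**Figure D2:**
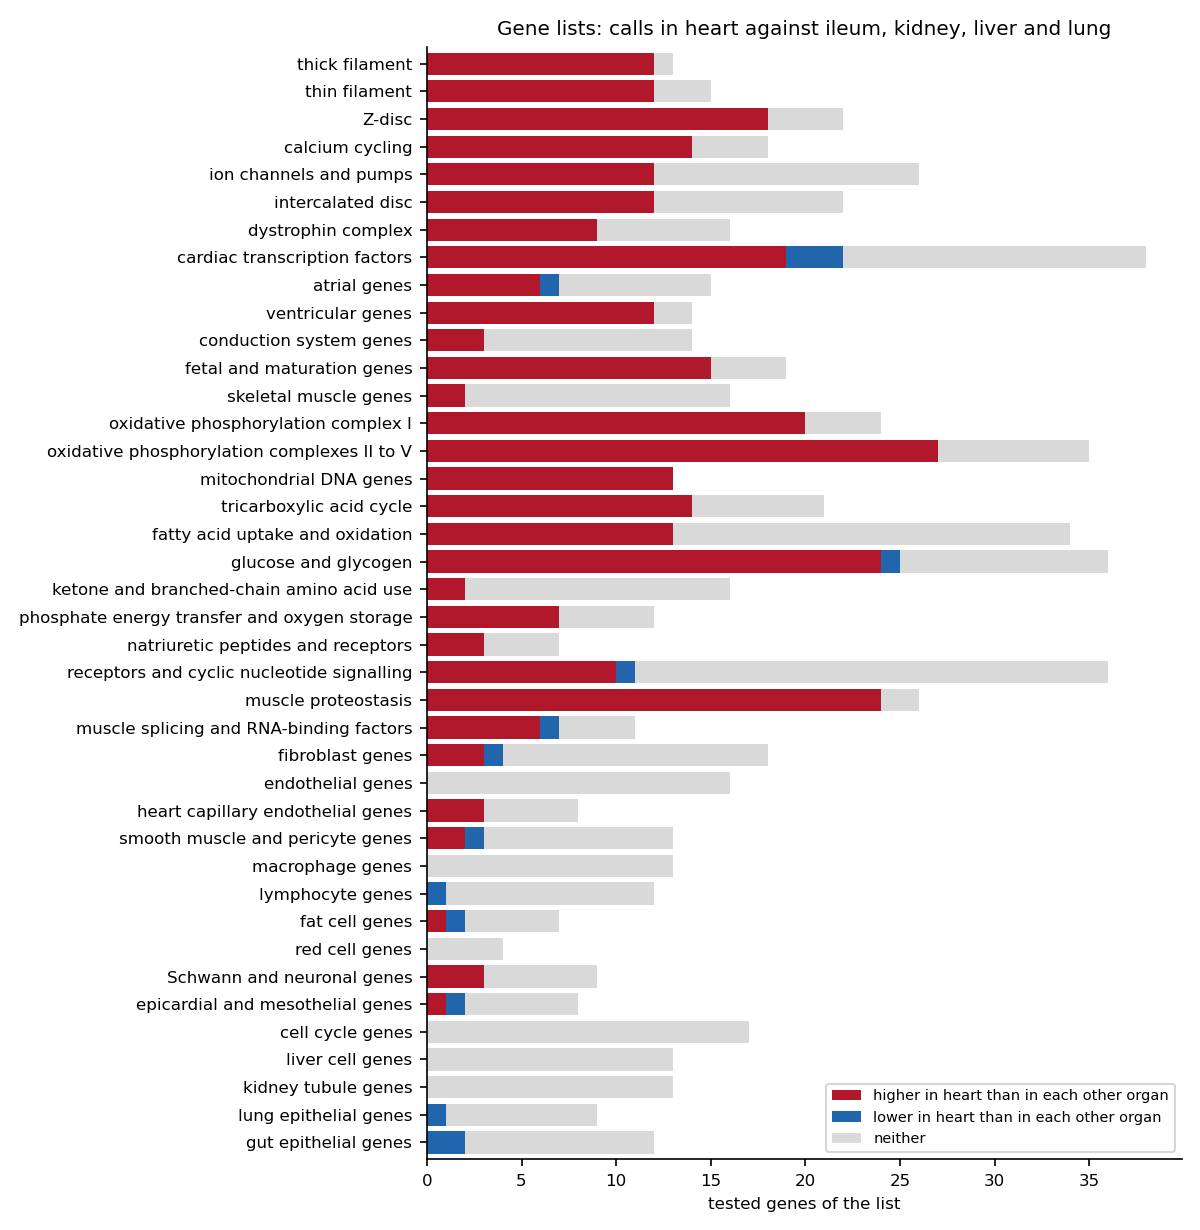
Number of tested genes in each list that were higher in heart than in each of 4 other organs, lower than in each, or neither (bars, edgeR adjusted p under 0.05 and at least 2-fold). Most members of the sarcomere, calcium cycling, oxidative phosphorylation and proteostasis lists are higher, and no member of the liver, kidney, lung and gut lists is.

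Genes of the sarcomere were higher nearly throughout. Of 50 tested genes in lists of the thick filament, the thin filament and the Z-disc, 42 were higher in heart and 0 were lower. They took 12.7 to 17.3% of a heart's counts, against 0.0352 to 0.979% in the other libraries. In the thick filament list 12 of 13 genes were higher, with a median of 8.76, the highest of the 40 lists. MYH7 (chromosome 7, 75650841 to 75672908), the slow myosin heavy chain of the ventricle, alone took 3.75, 6.57 and 6.98% of the counts as lowest, median and highest heart. Its level was 60690.0, 88033 and 102626 CPM in hearts, against 0 to 9.56 CPM in the other libraries (edgeR adjusted p = 1.3e-14). The ventricular regulatory light chain MYL2 had 10404, 15525 and 21453 CPM in hearts and 0 counts in all ileum and liver libraries; the highest other library was the kidney of animal 4 at 5.24 CPM, which also held 9.56 CPM of MYH7 and 4.36 CPM of TNNT2. The essential light chain MYL3 had 4563 ± 1178 CPM in hearts (SD, n = 8), against 0.694 ± 0.650 CPM in kidney. MYBPC3, which tunes the myosin heads, had 8438 ± 1122 CPM in hearts and at most 2.37 CPM in any other library. The M-band proteins MYOM1, MYOM2 and MYOM3, which tie thick filaments together, were higher 90.6-fold, 477-fold and 136-fold than in the next organ, by ratios of mean CPM. MYLK3, the kinase of the cardiac light chain, was 415-fold higher. MYBPHL, which is known from the atrium, was the member not called, at 0.0179 CPM in heart and 1.37 CPM in kidney.

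In the thin filament list 12 of 15 genes were higher, with a median of 5.79. The 3 subunits of the troponin complex that switches contraction on with calcium stood at 15172 ± 1373 CPM (TNNT2), 15086 ± 3280.4 CPM (TNNI3) and 7104 ± 2093 CPM (TNNC1) in hearts. Their highest levels in any other library were 4.36, 17.4 and 3.15 CPM. TNNT2 varied little between hearts, from 13111 to 17644 CPM, a coefficient of variation (CV, the SD as a percent of the mean) of 9.05%, the lowest in its list. The leiomodin LMOD2, which lengthens thin filaments, had 928 ± 205 CPM in hearts and at most 0.172 CPM elsewhere. The tropomyosins TPM1 and TPM2 and the intermediate filament gene DES are also used by smooth muscle, and ileum was their next organ. TPM1 had 5270.1 ± 1301 CPM in hearts against 652 ± 741 CPM in ileum (edgeR adjusted p = 2.7e-07), TPM2 3032 ± 673 CPM against 773 ± 914 CPM in ileum (edgeR adjusted p = 0.00072) and DES 6488 ± 903 CPM against 1163 ± 1447 CPM in ileum (edgeR adjusted p = 0.00073). The spread among the ileum libraries was wide: 13 genes of smooth muscle and pericytes summed to 450.4 to 18460 CPM there, against 896 to 1234 CPM in hearts, and the part of this spread in the fold changes was not tested.

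In the Z-disc list, whose proteins anchor the thin filaments, 18 of 22 genes were higher, with a median of 4.67. ACTN2, the actin crosslinker, had 4752 ± 1032 CPM in hearts and 12.0 ± 12.7 CPM in ileum. TCAP, which caps titin, had 3919.8 ± 509 CPM in hearts and 2.49 ± 1.40 CPM in lung. MYOZ2, an inhibitor of calcineurin at the Z-disc, had 1862, 2382 and 3094 CPM in hearts and at most 0.452 CPM elsewhere, and CSRP3, a stretch sensor, 323, 394 and 631 CPM in hearts and at most 0.144 CPM elsewhere. ANKRD1, a stress-responsive ankyrin protein, had 2263 ± 687 CPM in hearts and 15.9 ± 5.32 CPM in lung. Not called were MYOZ1, PDLIM3, SYNPO2 and BAG3; the co-chaperone gene BAG3 had 109 ± 17.6 CPM in hearts and 131 ± 51.9 CPM in liver. Titin (TTN), myoglobin (MB), LDB3 and FHL2 are not analysed here.

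Most calcium handling genes were higher. In the calcium cycling list 14 of 18 genes were higher and 0 lower, with a median of 3.64. The release channel RYR2 had 919.6, 1335 and 2080.4 CPM in hearts, against 0.0725 to 33.3 CPM elsewhere. The store proteins of the sarcoplasmic reticulum were higher too, at 553 ± 111 CPM for CASQ2, 725 ± 57.7 CPM for HRC and 1586 ± 230.0 CPM for SRL in hearts, against 53.8 CPM in kidney, 4.18 CPM in kidney and 10.0 CPM in ileum. The sodium-calcium exchanger SLC8A1, which carries calcium out of the cell, had 806 ± 188 CPM in hearts and 63.8 ± 27.7 CPM in kidney. The pore subunit of the L-type calcium channel, CACNA1C, had 168 ± 26.2 CPM in hearts and 15.1 ± 4.04 CPM in lung (log2 fold change 3.54 ± 0.40 against lung). The calmodulin kinases CAMK2D and CAMK2A had 1008 ± 69.2 and 902 ± 78.1 CPM in hearts, against 86.2 CPM in lung and 7.84 CPM in ileum. Sarcolipin (SLN), the atrial inhibitor of the pump, averaged 0.0284 CPM in hearts and 1.41 CPM in kidney, and S100A1, a calcium sensor that boosts the pump, 178 ± 91.1 CPM in hearts and 161 ± 57.4 CPM in liver; neither passed the test.

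Of 26 tested ion channels and pumps 12 were higher and 0 lower, with a median of 0.77. KCNJ2, which sets the resting potential, had 199 ± 33.3 CPM in hearts and 14.5 ± 2.88 CPM in kidney, and KCNH2, a repolarising channel, 218 ± 38.7 CPM in hearts and 17.4 ± 6.23 CPM in lung. KCNIP2, the partner of the transient outward channel, had 96.5 ± 25.7 CPM in hearts and 1.08 ± 0.566 CPM in kidney. Its usual channel subunit KCND3 had 0.732 CPM in hearts and 26.7 CPM in kidney, and KCND2 2.81 CPM in hearts and 2.47 CPM in kidney; neither passed the test. ATP1B1, a sodium pump subunit used by every organ, had 231 ± 35.2 CPM in hearts and 1159 ± 238 CPM in kidney, the highest organ. KCNQ1, a slow repolarising channel that is also an epithelial channel, had 134 ± 20.4 CPM in hearts and 174 ± 57.1 CPM in kidney, while its heart partner KCNE1 was higher, at 46.3 ± 12.7 CPM in hearts and 4.79 ± 2.35 CPM in kidney.

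At the intercalated disc, where heart cells are joined end to end, 12 of 22 genes were higher and 0 lower, with a median of 1.26. The gap junction gene GJA1 had 498 ± 96.2 CPM in hearts and 39.5 ± 4.95 CPM in lung. Plakophilin PKP2 and desmoplakin DSP, which build desmosomes, had 277 ± 66.8 and 1157 ± 309 CPM in hearts, against 56.1 CPM in ileum and 272 CPM in ileum. The muscle-restricted CTNNA3 was 36.5-fold and NRAP 122-fold above the next organ by mean CPM. The desmosomal genes DSG2 and JUP, shared with epithelia, were not called: DSG2 had 55.2 ± 9.44 CPM in hearts and 120.0 ± 64.2 CPM in ileum, and JUP 193 ± 31.6 CPM in hearts and 236 ± 105 CPM in ileum. In the dystrophin complex, which links the cell skeleton to the matrix, 9 of 16 genes were higher and 0 lower, with a median of 1.94. DMD had 140.1 ± 46.9 CPM in hearts and 30.3 ± 6.51 CPM in liver, the sarcoglycan SGCA 133 ± 23 CPM and 13.9 ± 2.63 CPM in lung, and CAV3, the caveolin of muscle, 92.7 ± 27.5 CPM in hearts and at most 0.147 CPM elsewhere. UTRN, the homologue of DMD in other tissues, had 115 ± 15.0 CPM in hearts and 102 ± 38.8 CPM in kidney and was not called.

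Of 38 tested transcription factors and cofactors of the heart 19 were higher and 3 lower, with a median of 1.06. NKX2-5 (chromosome 16, 51086014 to 51089165), which specifies heart muscle, had 105, 154 and 187 CPM in hearts and at most 0.0745 CPM in any other library. TBX20, a repressor of non-heart fates, had 67.2 ± 26.6 CPM in hearts and 0.867 ± 0.375 CPM in liver. SMYD1, a muscle methyltransferase, had 306 ± 107 CPM in hearts and 0.635 ± 0.791 CPM in liver. GATA4 and GATA6 are shared with gut and liver, and were higher by less: GATA4 had 196, 229 and 272 CPM in hearts against 99.7 ± 12.6 CPM in liver (log2 fold change 1.22 ± 0.26, edgeR adjusted p = 0.0004), and GATA6 143 ± 18.9 CPM against 56.7 ± 31.6 CPM in ileum. The factors HAND1 and HAND2, which build the ventricles in the embryo, had 54.8 ± 10.0 and 76.1 ± 11.2 CPM in hearts, against 16.1 CPM in ileum and 9.71 CPM in liver. MYOCD, the partner of SRF at muscle genes, had 28.6 ± 6.46 CPM in hearts and 4.34 ± 1.25 CPM in lung. The MEF2 factors of muscle were split, with MEF2A at 153 ± 11.6 and MEF2D at 261 ± 39.2 CPM higher in heart, while MEF2C had 90.0 ± 10.6 CPM in hearts and 75.5 ± 49.4 CPM in ileum and was not called. TBX5, a partner of NKX2-5, had 77.9 ± 9.42 CPM in hearts and 59.4 ± 12.3 CPM in lung, and was not called (edgeR adjusted p = 0.21). The 3 lower genes were GATA5 at 0.263 ± 0.229 CPM, MEIS1 at 6.10 ± 2.56 CPM and NR2F1 at 2.90 ± 1.74 CPM in hearts, and the lowest other organ means were 1.42 CPM for GATA5 in liver, 15.3 CPM for MEIS1 in liver and 10.8 CPM for NR2F1 in ileum. MEIS1 lost its call without animal 7, 13 or 14 (log2 -1.01, -0.9996 and -1.01), with limma-voom (-1.05) and with total counts alone (-0.96). HAND1, with a range of 0.0352 to 46.8 CPM in ileum and a reported smallest log2 value of 3.44, lost its call with DESeq2 (2.29) and without the animal term (1.77). With a 4-fold threshold 11 of the 38 were higher.

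Most genes known from the ventricle were higher in these hearts. Of 14 tested ventricular genes 12 were higher and 0 lower, with a median of 4.18, and of 15 atrial genes 6 were higher and 1 lower, with a median of 0.37. The ventricular factors IRX4 and HEY2, which repress atrial genes, had 58.1 ± 7.51 and 121 ± 32.4 CPM in hearts, against 0.194 CPM in liver and 5.42 CPM in lung. NR2F1, an atrial identity factor, was lower in heart, as given above. Of the 6 higher atrial genes, the potassium channels KCNA5 and KCNJ3 had 20.2 ± 5.63 and 25.5 ± 3.21 CPM in hearts, against 4.49 CPM in lung and 1.13 CPM in kidney, PAM, which amidates peptides, 436 ± 81.9 CPM and 131 CPM in lung, and the kinase SBK2 29.1 ± 8.90 CPM and 4.20 CPM in lung. Of the other atrial genes, BMP10 averaged 0.0368 CPM, SLN 0.0284 CPM and MYBPHL 0.0179 CPM in hearts. The atrial light chain gene MYL4, also used by the fetal ventricle, was higher in heart at 11.7, 10.2, 50.6, 8.61, 61.1, 53.7, 18.0 and 17.4 CPM in animals 1, 4, 7, 10, 13, 14, 15 and 26, so that hearts 7, 13 and 14 stood above the other 5. NPPA, the hormone gene of the atrium, had 68.4, 81.3, 142, 55.7, 209, 286, 101 and 74.0 CPM in the same order, with animals 13 and 14 highest.

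Of 14 tested genes of the pacemaker and conduction system 3 were higher and 0 lower: the transcription factors IRX3, TBX18 and SHOX2, at 76.9 ± 13.8, 8.00 ± 2.16 and 2.30 ± 1.74 CPM in hearts, against 17.6 CPM in kidney, 1.38 CPM in lung and 0.407 CPM in liver. The T-type calcium channel CACNA1G averaged 0.786 CPM in hearts.

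Fetal and adult forms of several proteins were detected side by side. Of 19 tested genes of this list 15 were higher than in the other organs and 0 lower. The adult troponin TNNI3 had 11498, 14109 and 22126 CPM in hearts. The fetal form TNNI1 had 434, 29.2, 222, 447, 18.4, 157, 57.8 and 80.2 CPM in animals 1, 4, 7, 10, 13, 14, 15 and 26, so hearts 1 and 10 were highest and hearts 4 and 13 lowest. Across hearts TNNI1 thus spanned a 24.3-fold range, and TNNI3 a 1.92-fold range. The fast myosin MYH6 had 922, 1948, 485, 345, 3653, 1684, 146 and 283 CPM in the same order; heart 13 was highest and heart 15 lowest, a 25.1-fold range. MYH6 and MYH7 are near-identical genes, as are ACTC1 and ACTA1, so the division of reads between them is uncertain. ACTA1, the skeletal actin also made by the developing heart, had 11142, 14704, 11439, 10386, 21933, 17378, 5167 and 7597 CPM, against at most 10.6 CPM in any other library. Of the adult mitochondrial isoforms, COX6A2 had 424 ± 113 CPM in hearts and 5.93 ± 1.03 CPM in liver, and COX7A1 447 ± 176 CPM in hearts and 67.1 ± 17.6 CPM in kidney. The fetal genes IGF2BP3 and DLK1 had 7.61 and 2.90 CPM in hearts and 31.5 CPM in liver and 78.6 CPM in kidney, and were not called. No other age was sampled, so no course over development can be read from these levels.

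Of 16 tested skeletal muscle genes 2 were higher in heart, TNNT1, a slow fibre troponin, at 41.3 ± 16 CPM in hearts and 0.376 CPM in liver, and KLHL41, which stabilises thin filaments, at 499 ± 44.1 CPM and 0.581 CPM in kidney. Skeletal muscle genes near 0 in hearts included MYBPC1 at 0.00791 CPM and the fast fibre genes ATP2A1 at 0.299 CPM and PVALB at 0 counts in all 8.

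Genes of oxidative phosphorylation were higher as a group. All 13 protein genes of mitochondrial DNA were higher in heart than in each other organ, with a median of 2.09. They took 19.3 to 33.4% of the counts of a heart (25.7 ± 4.13%, n = 8), against 2.24 to 13.9% in other libraries, of which kidney came next at 12.0 ± 1.77%. COX1, a subunit of cytochrome oxidase, had 53457, 77445 and 132984 CPM in hearts, against 25623 ± 5824 CPM in kidney (log2 fold change 1.63 ± 0.19, edgeR adjusted p = 2.3e-08); with total counts alone the log2 value was 0.72, and that of COX3 0.94, under the 2-fold threshold. COX1 was also not called with DESeq2 (log2 1.59). With total counts alone 9 of the 13 were higher, and at 4-fold 7. By counts, which grow with transcript length, the 10 most abundant genes of the hearts were MYH7, COX1, ATP6, COX3, ND4, CYTB, ND5, COX2, ND2 and MYL2, all but MYH7 and MYL2 from mitochondrial DNA. The libraries were made from poly(A) RNA, and mitochondrial messengers have short tails, so these shares describe the libraries. In nuclear genes, 20 of 24 of complex I and 27 of 35 of complexes II to V were higher and 0 lower, with medians of 1.44 and 1.6. With total counts alone 7 of 24 and 13 of 35 were higher, and at 4-fold 3 and 7. UQCRC1 of complex III had 871 ± 117 CPM in hearts and 241 ± 32 CPM in liver, and ATP5F1A of the ATP synthase 1781 ± 329 CPM and 583 ± 115 CPM in liver. Of the genes not called higher, 4 of 4 in complex I and 6 of 8 in complexes II to V had liver as the highest other organ. The regulators PPARGC1B and ESRRA were higher, at 56.3 ± 14.6 and 337 ± 34.3 CPM in hearts against 15.2 CPM in ileum and 128 CPM in liver, and PPARGC1A, at 139.9 ± 33.3 CPM in hearts and 94.3 ± 8.43 CPM in kidney, was not called.

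**Figure D3:**
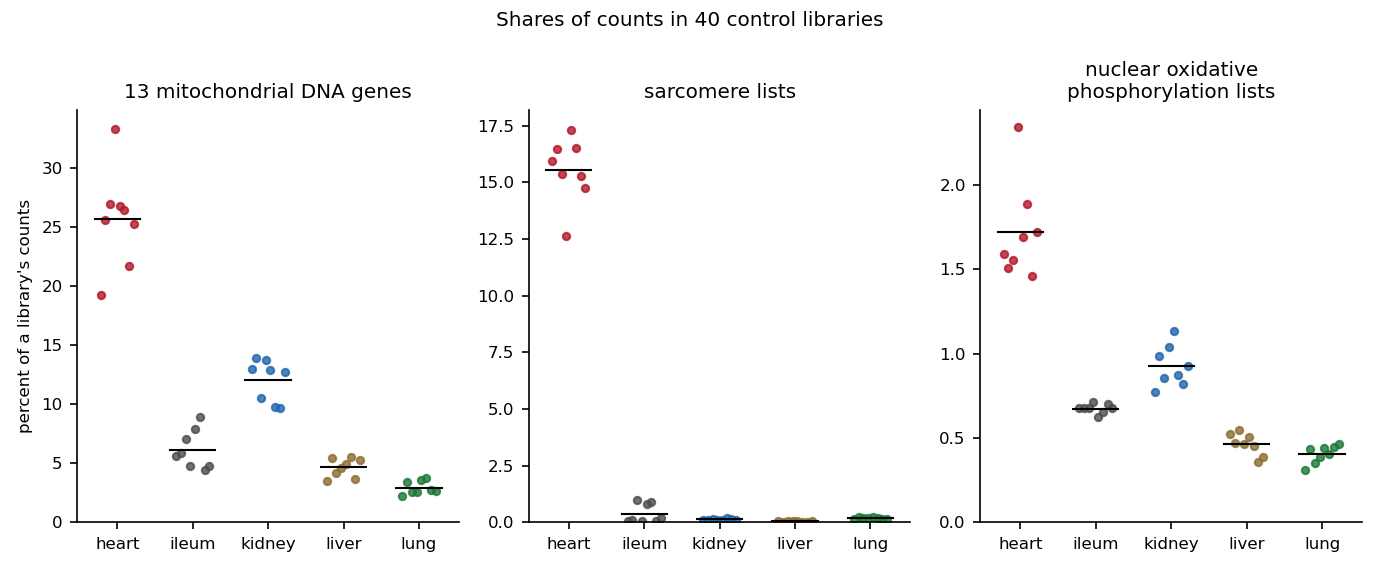
Percent of a library's counts in the 13 mitochondrial DNA genes, in the lists of the sarcomere and in the nuclear lists of oxidative phosphorylation, 8 points per organ with the mean as a bar. All 8 hearts lie above all 32 other libraries in each panel.

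In the tricarboxylic acid cycle and its aspartate shuttle 14 of 21 genes were higher and 0 lower, with a median of 1.28; with total counts alone 6 were. IDH3A, a subunit of isocitrate dehydrogenase, had 433 ± 72.3 CPM in hearts and 65.0 ± 14.5 CPM in kidney, and GOT1, of the shuttle that brings electrons into mitochondria, 498 ± 86.2 CPM and 100.5 ± 30.8 CPM in liver. SUCLG2, which makes GTP, had 187 ± 11.6 CPM in hearts and 473 ± 36.3 CPM in liver, and was not called, while SUCLA2, which makes ATP, was higher at 178 ± 20.3 CPM in hearts and 43.3 ± 8.11 CPM in kidney.

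Part of the fatty acid list was higher. Of 34 tested genes 13 were higher in heart than in each organ and 0 lower, with a median of 0.10; of the 21 not called higher, 17 had liver as the highest other organ. Among genes of uptake, LPL, which frees fatty acids from blood lipids, had 905 ± 187 CPM in hearts and 67.7 ± 44.5 CPM in ileum, and FABP3, the carrier of muscle, 1373 ± 404 CPM and 227 ± 109 CPM in kidney. CPT1B, the muscle gate of entry into mitochondria, had 591 ± 88.5 CPM in hearts and 14.5 ± 8.39 CPM in ileum. In the oxidation spiral, ACADVL (1137 ± 185 CPM, 5.29-fold over the next organ by mean CPM), HADHA (1349 ± 281 CPM, 3.11-fold) and HADHB (1047 ± 225 CPM, 4.94-fold), which act on long chains, were higher. ACADM, which acts on medium chains, had 328 ± 56.5 CPM in hearts and 615 ± 46.8 CPM in liver, a log2 fold change of -0.92 ± 0.13. ACSL1, which activates long chains, had 669 ± 184 CPM in hearts and 1627 ± 769 CPM in liver, a log2 fold change of -1.31 ± 0.22. Against ileum and lung, 28 and 27 of the 34 were at least 2-fold higher, against kidney 21 and against liver 16, with 1, 1, 4 and 6 lower, in that order of organs. CD36 is not analysed here.

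Of 36 tested genes of glucose and glycogen use 24 were higher and 1 lower, with a median of 1.61. SLC2A4, the insulin-responsive transporter, had 344 ± 63.8 CPM in hearts and 19.4 ± 22.9 CPM in ileum. GAPDH and ALDOA had 7622 ± 1159 and 4699 ± 415 CPM in hearts, against 1007 CPM in ileum and 832 CPM in ileum. PYGB and GYS1, which break down and build glycogen, had 2179 ± 312 and 270.4 ± 60.3 CPM in hearts and 45.6 CPM in ileum and 50.7 CPM in lung. PPP1R3A, which targets phosphatase to glycogen in muscle, had 52.3 ± 7.89 CPM in hearts and at most 0.120 CPM elsewhere. The pyruvate dehydrogenase subunits PDHA1 and DLAT had 1168 ± 210.1 and 224 ± 37.8 CPM in hearts and 529 CPM in kidney and 57.8 CPM in kidney. Of 16 genes for ketone and branched-chain amino acid use 2 were higher and 0 lower, with a median of -0.39; with total counts alone 1 was higher. OXCT1, which starts ketone use and which liver is known to lack, had 706 ± 143 CPM in hearts, 82.0 ± 13.0 CPM in kidney and 4.79 ± 1.07 CPM in liver.

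The store of high-energy phosphate was marked by CKM, the creatine kinase of muscle, at 6437, 9669 and 11916 CPM in hearts, against 62.2 ± 78.9 CPM in ileum, and by its mitochondrial partner CKMT2 at 1069 ± 205 CPM in hearts and 7.44 ± 3.36 CPM in kidney. The creatine transporter SLC6A8 had 158 ± 26.2 CPM in hearts and 152 ± 45.1 CPM in kidney and was not called. In this list 7 of 12 were higher and 0 lower.

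Within gene families, members that were higher in heart stood beside others that were not. Of 32 families of enzymes, carriers, pumps and filament proteins, 31 held a member that was higher in heart beside another that was not. In 1 none was higher. A member that was not tested counts here as not higher. The families were chosen with earlier results of these data known, and 7.19% of all genes tested were higher. The count of families is therefore not read as a result. In 6 families a member was higher and another lower. Among enolases ENO3 was higher, at 3048 ± 527 CPM in hearts and 25.2 ± 6.42 CPM in lung, and ENO1 lower, at 166 ± 28.2 CPM in hearts and 356 to 1057 CPM elsewhere. Of the adenine nucleotide carriers, which trade ATP for ADP at the mitochondrial membrane, SLC25A4 was higher, at 5341 ± 1146 CPM in hearts and 251 ± 100.3 CPM in liver, SLC25A5 lower, at 25.8 ± 5.29 CPM in hearts and 63.3 to 641 CPM elsewhere, and SLC25A6 neither, at 2329 ± 445 CPM in hearts and 1796 ± 279 CPM in kidney. Of the branched-chain aminotransferases the mitochondrial BCAT2 was higher, at 219 ± 21.5 CPM in hearts and 80.9 ± 21.5 CPM in kidney, and the cytosolic BCAT1 lower, at 3.49 ± 1.96 CPM in hearts and 5.59 to 61.1 CPM elsewhere; with total counts alone BCAT2 was not called (log2 0.55). CPT1B was higher and CPT1C lower, at 0.597 ± 0.320 CPM in hearts and 0.864 to 11.3 CPM elsewhere, with CPT1A at 40.1 ± 17.5 CPM in hearts and 197 ± 105 CPM in liver. HK1, the hexokinase of most tissues, was higher, at 614 ± 173 CPM in hearts and 129 ± 21.8 CPM in kidney, and HK3 lower, at 7.40 ± 3.40 CPM in hearts and 10.2 to 316 CPM elsewhere. The fructose transporter SLC2A5 was lower, at 0.117 ± 0.123 CPM in hearts, and liver came next at 0.464 ± 0.385 CPM (edgeR adjusted p = 0.029). It lost this call without animal 1, 13 or 14, with log2 values of -1.497, -1.57 and -1.28 against the nearest organ. The call was also lost with limma-voom (-1.74), total counts alone (-1.39) and all libraries thinned to the smallest total (-1.52).

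In other families a second member was not called. PFKM was 20.6-fold above the next organ by mean CPM, and PFKL had 151 ± 33.0 CPM in hearts and 120.4 ± 34.9 CPM in kidney. PGAM2 was 37.5-fold higher, and PGAM1 had 239.9 ± 59.4 CPM in hearts and 266 ± 66.9 CPM in kidney. ADSS1 was 8.72-fold higher, and ADSS2 had 10.9 ± 1.34 CPM in hearts and 28.9 ± 3.34 CPM in ileum. The pyruvate dehydrogenase kinase PDK2, a brake on glucose oxidation, was higher at 332 ± 39.5 CPM in hearts and 150.4 ± 49.7 CPM in kidney, and not called with total counts alone (log2 0.32). LDHB, which favours use of lactate, had 80.1 ± 56.7 CPM in hearts and 14.6 ± 14.9 CPM in kidney, and LDHA 48.5 ± 8.46 CPM in hearts and 308 ± 42.9 CPM in ileum; RefSeq lists 2 copies of LDHB (chromosome 2, 12988754 to 12990033, and chromosome 5, 51810932 to 51831218), so the count under this name is uncertain. ACSL6 was called higher at 0.797 ± 0.658 CPM in hearts and 0.269 CPM in ileum (edgeR adjusted p = 0.022). This call was lost without animal 1, 14 or 15 (log2 1.44, 1.51 and 1.44) and without the animal term (1.57). It was also lost with no low-count filter (1.65) and with total counts alone (0.83).

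**Figure D4:**
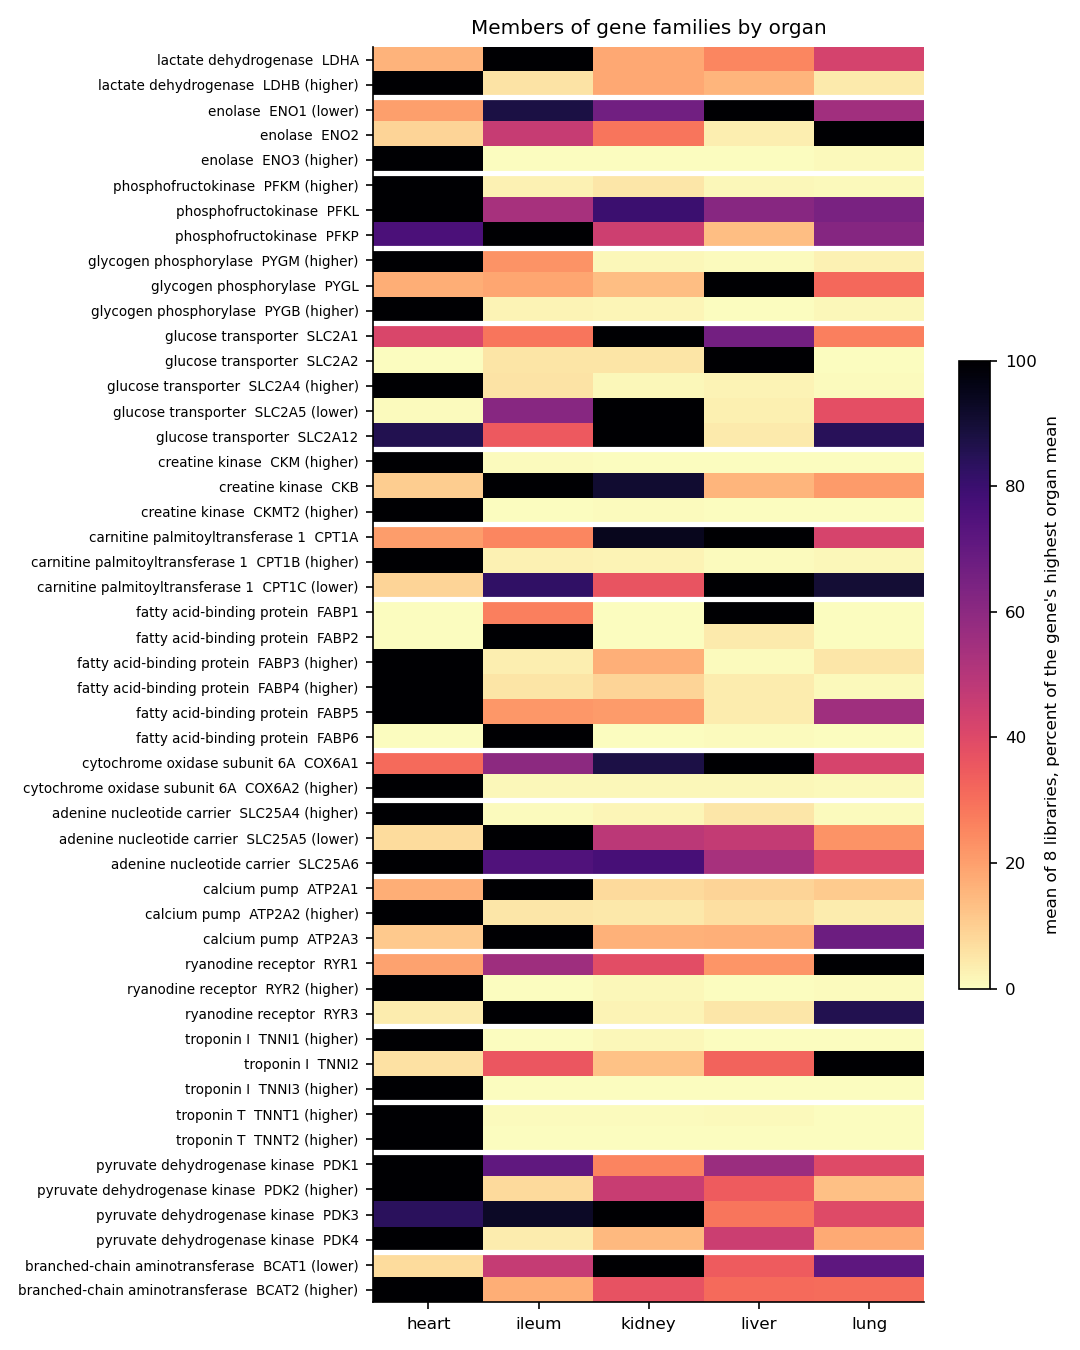
Mean of 8 libraries per organ for members of 16 gene families, as a percent of the gene's own highest organ mean (colour); higher and lower mark the calls in heart against each other organ. Rows compare organs within a gene, and not genes with each other. LDHB, ENO3, PFKM and COX6A2 have their highest mean in heart, and LDHA, ENO1, PFKP and COX6A1 have theirs in another organ.

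Among signals, the natriuretic peptide genes NPPA and NPPB, hormones that lower blood volume, were higher, at 127 ± 81.3 and 23.4 ± 15.3 CPM in hearts and at most 0.103 and 0.267 CPM elsewhere. The protease CORIN, which matures the NPPA product, was higher at 76.2 ± 27.2 CPM in hearts and 27.7 ± 9.38 CPM in liver. Their receptors NPR1, NPR2 and NPR3 had 33.6 ± 11.5, 26.8 ± 3.12 and 49.1 ± 13.7 CPM in hearts, against 71.3 CPM in lung, 28.9 CPM in lung and 51.8 CPM in liver, and were not called. Of 36 tested receptors and cyclic nucleotide genes 10 were higher and 1 lower, with a median of -0.10; with total counts alone 6 were higher. They included CHRM2, the vagal receptor, at 38.3 ± 10.6 CPM in hearts and 10.8 ± 2.95 CPM in lung, and EDNRA, the endothelin receptor, at 212 ± 25.3 CPM and 30.6 ± 5.47 CPM in lung. Downstream, ADCY6, which makes cyclic AMP, had 923 ± 194 CPM in hearts and 155 ± 19.1 CPM in kidney, PDE3A, which breaks it down, 433 ± 68.7 CPM and 30.2 ± 7.34 CPM in kidney, and AKAP6, which anchors its kinase, 102 ± 19.7 CPM and 4.82 ± 1.89 CPM in ileum. The beta receptor gene ADRB1 had 23.7 ± 4.84 CPM in hearts and 17.5 ± 3.29 CPM in lung, and was not called. AGTR1, the angiotensin receptor, had 13.8 ± 4.55 CPM in hearts and 162 ± 15.4 CPM in liver. The thyroid hormone receptor THRA was higher at 506 ± 49.9 CPM and 142 ± 12.1 CPM in kidney, and THRB, at 39.3 ± 8.29 CPM in hearts and 39.1 ± 21.0 CPM in liver, was not called. The growth factor gene NRG1 was lower, at 0.103 ± 0.179 CPM in hearts and 0.793 ± 0.321 CPM in liver, the lowest of the others.

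Protein quality control of muscle was higher nearly throughout, with 24 of 26 tested genes higher and 0 lower and a median of 5.31. The ubiquitin ligases TRIM63 and FBXO32 had 356 ± 39.8 and 685 ± 97.7 CPM in hearts and 0.191 CPM in kidney and 109.8 CPM in ileum. The small heat shock proteins HSPB7 and CRYAB had 1719 ± 380.3 and 827 ± 163 CPM in hearts and 7.03 CPM in ileum and 90.7 CPM in liver, and UNC45B, the myosin chaperone, 208 ± 43.4 CPM and 1.5 CPM in liver. The exceptions were TRIM72, at 0.441 CPM in hearts and 2.96 CPM in ileum, and CUL3, at 91.0 ± 9.95 CPM in hearts and 69.5 ± 18.1 CPM in ileum. Of 11 splicing and RNA-binding factors 6 were higher and 1 lower; with total counts alone 3 were higher. RBM20, which controls titin splicing, had 246 ± 30.8 CPM in hearts and at most 1.66 CPM elsewhere, RBFOX1 22.7 ± 4.38 CPM and at most 0.591 CPM elsewhere, and QKI 309 ± 39.1 CPM and 153 ± 18.9 CPM in lung. The QKI value against lung was a log2 fold change of 1.02 ± 0.11, at the threshold, and its call was lost without animal 1, 4 or 13 (0.93, 0.99 and 0.97). It was also lost with RLE scaling (0.997), total counts alone (0.024), no low-count filter (0.98), DESeq2 (0.997) and without the lung of animal 1 (0.94). PTBP1, which represses muscle exons, was lower, at 109 ± 13.3 CPM in hearts and 242 to 558 CPM elsewhere.

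Of 123 tested genes of other cells of the heart, among them fibroblasts, vessels and blood cells, 15 were higher and 5 lower. Of 18 fibroblast genes 3 were higher and 1 lower; without animal 1, 4 or 10 only 1 was higher, and with total counts alone 0. LUM, which spaces collagen fibrils, had 80.5 ± 26.5 CPM in hearts and 38.7 ± 29.5 CPM in kidney, DPT 49.5 ± 10.3 CPM and 21.0 ± 5.96 CPM in lung, and MFAP5 42.6 ± 18.1 CPM and 9.72 ± 4.68 CPM in lung. The DPT call was lost on leaving out any 1 of the 8 animals (log2 1.21 to 1.43, reported value 1.33), and LUM lost its call without animal 1, 4 or 10 (1.04, 1.01 and 0.97). DPT also lost its call with RLE scaling (1.30), no low-count filter (1.29), no animal term (1.24) and without the lung of animal 1 (1.17). The complement gene C7 was lower, at 50.5 ± 19.5 CPM in hearts and 70.8 to 541 CPM elsewhere. DCN had 221 ± 56.0 CPM in hearts and 174 ± 58.2 CPM in kidney, and COL1A1 742 ± 411 CPM and 1273 ± 350.5 CPM in lung. Of 16 general endothelial genes 0 were higher or lower than in each organ, but 15 were at least 2-fold higher in heart than in ileum, and 8 lower than in lung, with 1 higher. PECAM1 had 223 ± 46.5 CPM in hearts, 465 ± 102 CPM in lung and 88.3 ± 31.4 CPM in ileum. Of 8 genes of heart capillary endothelium 3 were higher: FABP4 at 107 ± 53.8 CPM in hearts and 9.59 ± 10.9 CPM in kidney, MEOX2 at 28.3 ± 7.72 CPM and 11.2 ± 2.92 CPM in lung, and TCF15 at 12.2 ± 4.90 CPM and 1.05 ± 0.601 CPM in kidney; the last pair are transcription factors of fatty acid transport in heart capillaries of mice. Of 13 tested genes of smooth muscle and pericytes 2 were higher and 1 lower, with a median of -2.59. Against single organs 4 were higher and 6 lower than in ileum, and 4 higher and 2 lower than in kidney. Against liver 6 were higher and 3 lower, and against lung 2 higher and 8 lower. The higher genes were RGS5 and KCNJ8, which are known from pericytes, and the other members, PDGFRB among them, were not higher. RGS5 had 243 ± 50.3 CPM in hearts and 31.8 ± 19.1 CPM in ileum, and KCNJ8 106 ± 21.1 CPM and 23.3 ± 5.38 CPM in lung. Of 13 macrophage genes 0 were higher or lower than in each organ, and against single organs 1 was higher and 5 lower than in ileum, 3 higher and 1 lower than in kidney, 1 higher and 11 lower than in liver and 11 lower than in lung. The lymphocyte list held 1 lower gene of 12, JCHAIN of antibody-secreting cells, at 6.05 ± 2.32 CPM in hearts and 19.0 ± 11.08 CPM in kidney, the lowest of the others. PLIN4, a coat protein of fat droplets, was the higher gene of 7 in the fat cell list at 311 ± 74.9 CPM in hearts and 35.4 ± 41.5 CPM in ileum, while ADIPOQ and PLIN1, which define fat cells, averaged 1.05 and 0.732 CPM in hearts. Of 9 genes of Schwann cells and nerve, 3 were higher. Among them were CDH19 of Schwann cells at 2.47 ± 1.02 CPM in hearts, against 0.759 CPM in ileum, and NCAM1, which muscle also makes, at 289 ± 48.1 CPM and 30.3 CPM in kidney. CDH19 lost its call without animal 1, 10 or 15 (log2 1.75, 1.97 and 1.96), without the animal term (1.71) and with total counts alone (1.27).

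The red cell list had 0 of 4 tested genes called, and the list of epicardial and mesothelial genes 1 of 8 higher, TBX18, and 1 lower, KRT19. Cell cycle genes placed the heart between organs. Of 17 tested genes 0 were higher or lower than in each; against ileum 17 were lower, against lung 11 lower, against kidney 9 higher and against liver 1 higher and 1 lower. The list summed to 119 to 286 CPM in hearts, 395 to 3397 CPM in ileum, 83.5 to 223 CPM in kidney, 158 to 303 CPM in liver and 241 to 749 CPM in lung. TOP2A, needed to part chromosomes, had 9.97 to 44.2 CPM in hearts.

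Each of 47 tested markers of the other organs' own cells was at least 2-fold lower in heart than in the organ it marks: 13 of liver, 13 of kidney tubule, 9 of lung epithelium and 12 of gut epithelium. Of the 47, 0 were higher and 3 were lower than in all 4 organs. UMOD and SLC34A1 of the kidney tubule, SFTPA1 and SCGB1A1 of lung epithelium and FABP2 and KRT20 of gut epithelium had 0 counts in all 8 hearts. ALB, the main secreted protein of liver, had 3.05 to 26.6 CPM in hearts and 52003 to 101704 CPM in livers. Others were detected: APOA1 of the liver list had 30.95 to 74.5 CPM in hearts and 12429 to 24382 CPM in livers, and ABCA3 of the lung list 11.04 to 17.03 CPM in hearts and 181 to 359 CPM in lungs. The liver list summed to 46.3 to 96.1 CPM in hearts, and 6 of its 13 genes were higher in heart than in lung.

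The genes lower in heart by the largest margins included regulators and surface proteins of epithelia. Of the 1256 lower genes, all 8 hearts lay below all 32 other libraries for 542, and 114 had 0 counts in all hearts. PIGR, the antibody transporter, SULT1E1, an estrogen sulfotransferase, and TMPRSS2, a serine protease, had 0 counts in every heart and lowest organ means of 48.8, 30.8 and 14.6 CPM. The epithelial transcription factor ELF3 averaged 0.0158 CPM in hearts and 17.7 CPM in lung, the lowest of the others. CLDN3, a tight junction protein, averaged 0.00854 CPM in hearts and 14.1 CPM in kidney, and EPS8L2, an actin regulator, 0.160 and 109 CPM in lung. HSD17B2, which inactivates sex steroids, averaged 0.00791 CPM in hearts and 18.1 CPM in lung. C1orf116 and TMEM125 were also among the 10 lower genes with the largest smallest difference, at 0.0199 and 0.0541 CPM in hearts and 19.0 and 18.1 CPM in liver. The 15 higher genes at that end were MYL2, MYH7, TNNT2, MYOZ2, CSRP3, ACTA1, TNNC1, LMOD2, NKX2-5, LRRC10, TECRL, MYBPC3, COX8H, NPPA and ABRA. LRRC10, a leucine-rich repeat protein of heart muscle, had 15.0, 30.9 and 40.5 CPM in hearts and 0 counts in all 32 other libraries. Taking 3 counts over the 8 libraries as the floor, LRRC10 was at least 1791-fold higher than in liver, the organ with the lowest such bound. TECRL, an enzyme-like protein tied to inherited arrhythmia in people, had 138 ± 35.0 CPM in hearts and at most 0.0617 CPM elsewhere, COX8H, the heart form of a cytochrome oxidase subunit, 235 ± 88.2 and at most 0.123 CPM, and ABRA, an actin-binding protein of striated muscle, 62.5 ± 11.2 and at most 0.0431 CPM.

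The 8 hearts differed from each other unevenly across lists. The median CV between hearts was 17.6% over 8934 genes of at least 10 CPM. It was 15.2% over the tricarboxylic acid cycle list, 23.9% over the thick filament, 27.9% over complex I, 44.0% over macrophage genes and 97.1% over the 2 lymphocyte genes at that level. Of the listed genes at that level, SSPN of the dystrophin complex varied least, with a CV of 4.61%. The 10 genes of largest spread on the log2 scale were EIF1AY, CXCL9, PDK4, OAS1, TNNI1, ISG15, MYH6, C4A, CLU and CD2. EIF1AY is Y-linked and follows sex.

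Several genes of interferon response, T cells and macrophages were highest in heart 15. ISG15, induced by interferon, had 439, 46.4, 126, 74.5, 34.6, 50.4, 929 and 122 CPM in hearts 1, 4, 7, 10, 13, 14, 15 and 26. The chemokine gene CXCL10 had 63.8, 57.1, 75.0, 55.6, 43.8, 36.8, 499 and 296 CPM in the same order, so heart 15 was highest and heart 26 next. CXCL9, a related chemokine, had 12.5, 105, 11.5, 5.47, 23.5, 3.03, 77.5 and 101 CPM, with hearts 4, 26 and 15 above the other 5. CD2 of T cells had 18.2, 19.4, 8.92, 4.10, 5.96, 4.18, 77.3 and 25.7 CPM, and SIGLEC1 of macrophages 21.8, 8.09, 11.08, 4.37, 2.95, 2.02, 43.0 and 8.85 CPM, both highest in heart 15; SIGLEC1 and CXCL10 rank just below the 10. The macrophage list summed to 415 to 1329 CPM in hearts and was highest in heart 15. The antiviral enzyme gene OAS1 had 1.20, 10.8, 20.3, 1.09, 7.21, 10.0, 27.5 and 13.5 CPM, and the complement gene C4A 70.4, 74.0, 16.4, 7.45, 5.90, 9.70, 69.9 and 45.3 CPM, with hearts 1, 4, 15 and 26 above the others. The chaperone gene CLU had 349, 346, 117, 346, 296, 64.0, 27.9 and 596 CPM, lowest in heart 15.

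PDK4, a brake on pyruvate oxidation that rises in fasting, had 228, 393, 548, 33.1, 197, 217, 12.1 and 73.7 CPM in hearts, a 45.3-fold range with heart 7 highest and heart 15 lowest. Animal 7 was also highest for PDK4 in kidney, liver and lung, and animal 15 lowest in ileum, kidney and lung. ANGPTL4, a lipase inhibitor that answers to fatty acids, had 25.5, 83.1, 65.9, 6.22, 14.8, 17.2, 7.51 and 12.3 CPM in hearts, with hearts 4 and 7 highest. LDHB was highest in animal 7 in all 5 organs, with 217 CPM in its heart, 68.8 CPM in its liver, 50.8 CPM in its kidney, 13.7 CPM in its ileum and 11.07 CPM in its lung. As given above, the count under the name LDHB is uncertain. The labels give no feeding state or age of single animals, so no such factor can be tested.

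**Figure D5:**
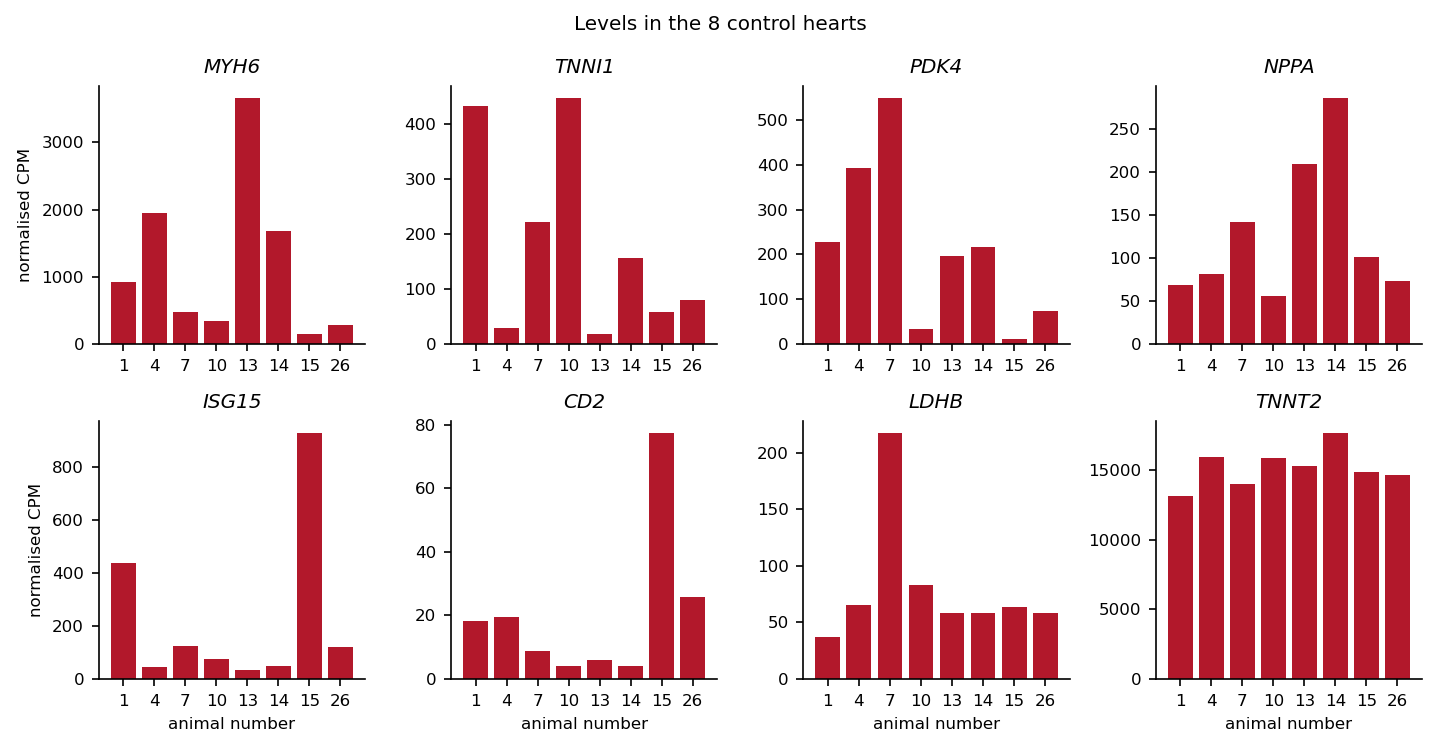
Normalised CPM of 8 genes in the 8 control hearts, 1 bar per animal, each panel with its own axis from 0. MYH6 is highest in heart 13, TNNI1 in heart 10, PDK4 in heart 7, and ISG15 and CD2 in heart 15, while TNNT2 lies between 13111 and 17644 CPM.

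Female and male hearts, 4 each, were compared among 14123 genes. In 9 of them (0.0637%) the edgeR adjusted p was under 0.05, and all 9 were lower in female hearts. The symbols EIF1AY and KDM5D, both Y-linked, name 2 of them; EIF1AY had 0 counts in female hearts and 34.0 ± 7.59 CPM in male hearts, and KDM5D 0 counts and 3.06 ± 1.08 CPM. KDM5D lost its call without animal 1, 7 or 26, each a male. With DESeq2 27 genes were called, of which 19 were lower in female hearts. An unadjusted p under 0.05 was reached by 594 genes. EPHX1, an epoxide hydrolase, stood next, at 132.8 ± 10.7 CPM in female hearts and 279 ± 63.4 CPM in male hearts (log2 fold change -1.06 ± 0.16, edgeR adjusted p = 0.0588), with the highest female heart at 144 CPM and the lowest male heart at 204 CPM. It was called with no low-count filter, with DESeq2, with limma-voom and without animal 7.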

How the data were processed

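Messenger RNA of 5 organs was sequenced, and 40 control libraries were used. Per the labels' protocols, flash-frozen tissue gave 200 ng of RNA, Tecan Universal Plus mRNA-Seq libraries and paired NovaSeq reads of 150 bases. The submitters' processing notes name Trim Galore, STAR, Salmon and Sscrofa11.1. The authors deposited 1 table of estimated counts per gene, 92.7 to 96.0% of whose values were whole per library (tolerance 1e-06); they were rounded. Whether counting used strand is not given in the sources used here, so antisense and overlapping genes cannot be told apart.

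Of 35670 genes, 17508 have a symbol in the table, 223 took one from an ID table and 17939 have an ID only. In R 4.3.3, edgeR 4.0.16 fitted organ and animal by its quasi-likelihood F test, after its filter by organ (18305 genes kept) and TMM scaling, with a biological coefficient of variation of 0.337. Animal was a term because organs came from the same pigs; deviations of heart and other organs of 1 animal correlated at medians of 0.134 to 0.291 over 10812 genes. Female and male hearts were compared in a separate fit. DESeq2 1.42.0, limma-voom 3.58.1, other scalings, no filter, thresholds, no animal term and each animal left out were tried. Calculations were tested on simulated data. P-values of the organ comparisons rest on the variation left after the organ and animal terms, with 1 estimate per gene shared by all organs. Those of the sex comparison rest on the spread between hearts of the same sex.

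Named genes are the 15 most higher, the 10 most lower, the 10 most abundant, those most variable between hearts, up to 5 higher and 3 lower members per list, all family members and the top genes by sex; other list members were named after their values were seen. Some genes that meet these rules are not reported here. Members and lists were chosen with earlier results of these data known. RefSeq coordinates are of Sscrofa11.1.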

Additional observations from a re-analysis of the deposited data

Results flagged for a closer look

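Of 229 genes named and detected in hearts, 26 had 1 heart whose gap to the nearest other heart, as a share of the range of all 8, was beyond Dixon's critical value. Chance flags about 1 in 20 groups, but the 26 are not read against this, since genes named for their spread between hearts are among the 229 and since in 6 of the 26 the other 7 hearts held 0 counts, which fixes the gap at the whole range. By animal, these were 9 in heart 10, 5 in heart 7, 4 in heart 15, 3 each in hearts 1 and 13 and 1 each in hearts 4 and 14. All but MYOM1 were flagged for a high value.

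Heart 10 was apart for PLN at 1117 CPM, with the next heart at 711 CPM, and for MYOM1 at 820.8 CPM, with the next lowest heart at 1981 CPM. Heart 10 was also highest for the mitochondrial DNA genes ATP6 at 85439 CPM and COX2 at 44947 CPM, the cytochrome oxidase gene COX6A1 at 141 CPM, the vagal receptor CHRM2 at 62.9 CPM, the nucleotide carrier SLC25A5 at 38.5 CPM, SHOX2 at 6.29 CPM and CLDN3 at 0.0683 CPM. Heart 15 was highest for ISG15 at 929 CPM and CD2 at 77.3 CPM, with the next hearts at 439 and 25.7 CPM, and for the hexokinase HK3 of white blood cells at 14.5 CPM and MYBPHL at 0.143 CPM. Heart 7 was highest for LDHB at 217 CPM, with the next heart at 82.9 CPM, for ALB at 26.6 CPM, ELF3 at 0.127 CPM, and HSD17B2 and MYBPC1 at 0.0633 CPM each. Heart 1 was highest for the collagen gene COL1A1 at 1690.3 CPM, with the next heart at 859 CPM, for TBX20 at 122 CPM and CACNA1G at 2.11 CPM. Heart 13 was highest for PDHA1 at 1617 CPM, and for BMP10 and SLN at 0.227 CPM each. Heart 4 was highest for LMOD2 at 1371 CPM and heart 14 for PDLIM3 at 18.9 CPM. Values under 0.3 CPM rest on a few counts.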

How the results depend on the processing

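With scaling by total counts alone 696 genes were higher in heart than in each organ and 2206 lower, with 2031 higher and 8922 lower against ileum, 1244 and 8785 against kidney, and 1466 and 9646 against lung; 689 of the 696 and 1155 of the 2206 were also called as reported. Of the genes named, 22 lost their call under it and 5 gained one; those that lost it include the transcription factors GATA6 (log2 0.55), MEF2A (0.47), MEF2D (0.28) and ESRRA (0.84), and THRA (0.88), CHRM2 (0.93) and PDHA1 (0.38), all in the reported direction. It shifts the median of all genes, as given above. A 4-fold threshold left 633 higher and 675 lower, and the adjusted p with no fold threshold gave 2353 and 2143. At 4-fold the higher genes numbered 14 in the glucose list, 8 in the fatty acid list, 4 in the tricarboxylic acid cycle, 6 in receptors and cyclic nucleotide signalling, 2 in splicing factors, and 1 each in the fibroblast and ketone lists. RLE scaling (1289 and 1301), no low-count filter (1325 and 1277), DESeq2 (1301 and 1408), limma-voom (1339 and 1283), leaving mitochondrial DNA genes out before scaling (1306 and 1257), thinning to the smallest library (1307 and 1157) and leaving out the lung of animal 1 (1246 and 1351) stayed within 1.5 times the reported counts; the last 2 were added after the data were seen. Without the animal term as a replicate block, 1293 genes were higher, of which 1285 were called with it, and 1232 lower. Leaving out 1 animal at a time gave 1219 to 1310 higher and 1154 to 1323 lower genes. Between female and male hearts 17 genes were called with no low-count filter and 27 with DESeq2, including the 9 reported in each, 13 with limma-voom, and 8 or 9 on leaving out 1 animal. No named gene that was called as reported changed direction under any of 17 settings. For named genes not called as reported, a change of sign was not looked for. The cause of each lost call was not tested. With hearts of 21321288 to 27219448 counts, levels of a few counts per library are the least certain.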

Other observations

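In the other organs, too, animal 15 was highest for ISG15, at 273 CPM in ileum, 576 in kidney, 2268 in liver and 1243 CPM in lung, where the medians of the 8 animals were 138, 71.4, 134 and 107 CPM. CD2 was highest in animal 15 in the same 4 organs, at 158, 128, 87.3 and 272 CPM against medians of 81.5, 14.1, 22.1 and 55.3 CPM. CXCL10 was highest in animal 15 in kidney, liver and lung, at 942, 1498 and 1039.6 CPM, and in animal 4 in ileum at 604 CPM. The 5 libraries of animal 15 share the animal, so this pattern is that of 1 animal of 8.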
